A study of Homo sapiens with 4 samples.

Results

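The 8 genes described here encode lineage and developmental transcription factors of 7 families: POU2F2 (POU), ZIC1 (ZIC), IRX6 (Iroquois), TBX10 (T-box), HNF4G (nuclear receptor), TFEC (MiT), and KLF2 and KLF4 (Kruppel-like). They were chosen from the authors' list of differentially expressed protein-coding genes, by symbol and with the deposited fold changes known, and all 8 were found among its 742 symbols. The experiment used K562, an established human line from chronic myelogenous leukaemia, and asked what silencing the long non-coding RNA HMRHL does to its transcripts. One group of 2 libraries received a scrambled siRNA and the other group of 2 an siRNA against HMRHL, and RNA was taken 36 hours after transfection. The labels name no other treatment. They leave unsaid how many siRNA sequences were used and if the 2 libraries per group are separate cultures. Each gene has 1 value over both groups in the authors' deposited table, with no level, error, p-value or value per library. Spread between replicates and read depth are therefore unknown, and no value below carries a test. Values were read as log2, positive where the knockdown is higher; the table states neither the scale nor the direction.

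Transcription factors of these families bind short DNA motifs through a shared DNA-binding domain and set which genes a lineage uses. Relatives within a family often bind nearly the same motif, so a cell's response depends on which relative is present and at what level. K562 cells have erythroid and megakaryocytic features, whereas the factors described here are best known from B cells, macrophages, endothelium, the gut and the embryo. HMRHL lies in an intron of PHKB on chromosome 16, the chromosome that also carries IRX6.

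Of the 8 factors, 5 were listed as higher in the HMRHL knockdown and 3 as lower, and the sizes ranged from 2.91-fold to 60.2-fold. The background goes the other way, with 30.6% of all listed symbols higher and 69.4% lower. A change of at least 4-fold was listed for 6 of the 8, against 39.6% of all listed symbols. If the values were signed linear fold changes instead, it would be 2 of the 8, POU2F2 and ZIC1, and 17 of all 742 symbols. The median absolute log2 value was 3.33 for the 8 factors and 1.82 for all listed symbols. Since the 8 were chosen with these values known, the counts and medians describe them and test nothing. Of the 19936 annotated protein-coding symbols, 3.71% had an entry in the table.

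**Figure D1:**
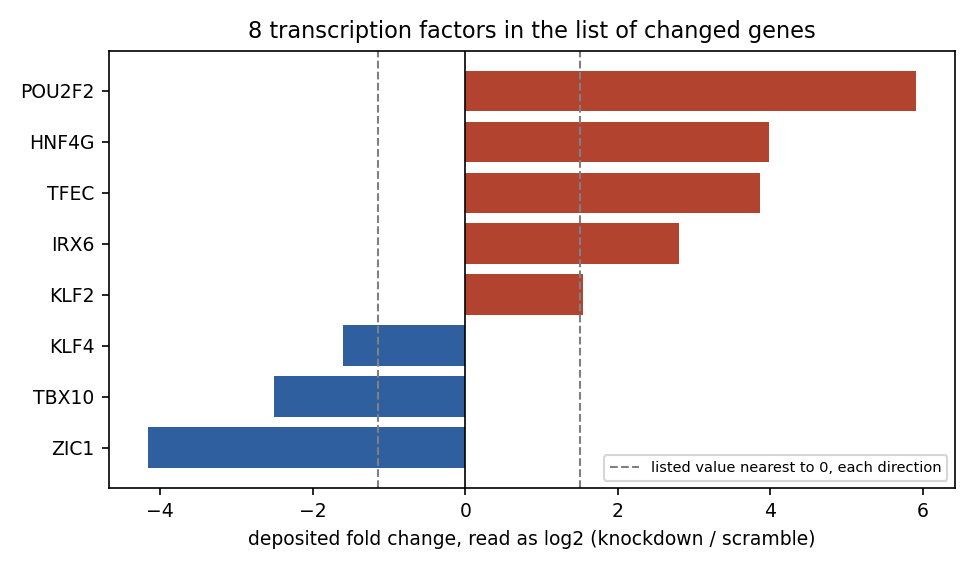
Deposited fold change of each of the 8 transcription factors, read as log2 of knockdown over scramble (1 value per gene from the authors' deposited table, no error available). Bars to the right are higher in the knockdown; dashed lines mark the listed values nearest to 0 in each direction, 1.50 and -1.15, and KLF2 ends just beyond the first.

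POU2F2 and TFEC were among the highest values. POU2F2, also known as OCT2, is a POU and homeobox factor that B cells use together with the coactivator POU2AF1. It had the highest value of all symbols, 5.91 in the authors' deposited table, which is 60.2-fold when read as log2. TFEC, a basic helix-loop-helix leucine zipper factor of the MiT family that is expressed in macrophages, stood at 3.86 in the authors' deposited table (14.5-fold), rank 13 of the 227 higher symbols. Its neighbours by value were the platelet chemokine PPBP at 3.89 and the chemokine receptor CCR4 at 3.77 in the authors' deposited table. POU2F2 was set apart from the next value, that of LDLRAD4, at 5.40 in the authors' deposited table, whereas TFEC lay within a close run of values.

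POU2F2 lies on the minus strand of chromosome 19 (42086110 to 42196585, GRCh38, GENCODE release 29) and has 20 annotated transcripts with 19 start positions. TFEC lies on the minus strand of chromosome 7 (115935148 to 116159896), with 9 transcripts and 7 start positions. A single value per gene does not show which of these transcripts changed. In both genes, 0 exonic bases overlap an exon of another annotated gene.

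HNF4G, a nuclear receptor of the gut related to HNF4A, stood at 3.98 in the authors' deposited table (15.8-fold), rank 9 of the 227 higher symbols. The gene lies on the plus strand of chromosome 8 (75407914 to 75566843) and has 4 annotated transcripts. Of 48 nuclear receptors, the only other one listed was NR3C2, the mineralocorticoid receptor, at 1.66 in the authors' deposited table. HNF4A had no entry. The 2 of 48 are 4.17%, near the 3.71% of all protein-coding symbols, and 1 of them was chosen with its value known.

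The embryonic patterning factors were listed in both directions. IRX6, an Iroquois homeobox factor, stood at 2.80 in the authors' deposited table (6.97-fold), rank 42 of the 227 higher symbols. ZIC1, a zinc finger factor of neural tube and cerebellar development, stood at -4.16 in the authors' deposited table (17.9-fold lower), rank 9 of the 515 lower symbols. TBX10, a T-box factor, stood at -2.50 in the authors' deposited table (5.66-fold lower), rank 88 of the 515 lower symbols. ZIC1 lay between ENAM at -4.29 and NRIP2 at -4.06, and TBX10 between LDLRAD2 (-2.53) and KCNT1 (-2.50) in the authors' deposited table. ZIC1 thus belonged to the sparse outer end of the lower genes, whereas TBX10 had closely spaced neighbours.

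IRX6 (chromosome 16, 55323760 to 55330760) and ZIC1 (chromosome 3, 147393422 to 147510293) are plus-strand genes. TBX10, with 1 annotated transcript, is a minus-strand gene of chromosome 11 (67631303 to 67639560). ZIC1 was the one factor of the 8 whose exons overlap those of another gene: 176 exonic bases, 2.59% of its exonic sequence, are shared with ZIC4 on the opposite strand. ZIC4 was not listed. The libraries were made with a stranded kit, but no source used here says if strand was used in counting. IRX6 was the one factor with a match of at least 90% identity to another gene in the transcript search, 195 bases at 91.3% identity to IRX5, or 6.23% of its longest transcript. IRX5 was not listed either.

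**Figure D2:**
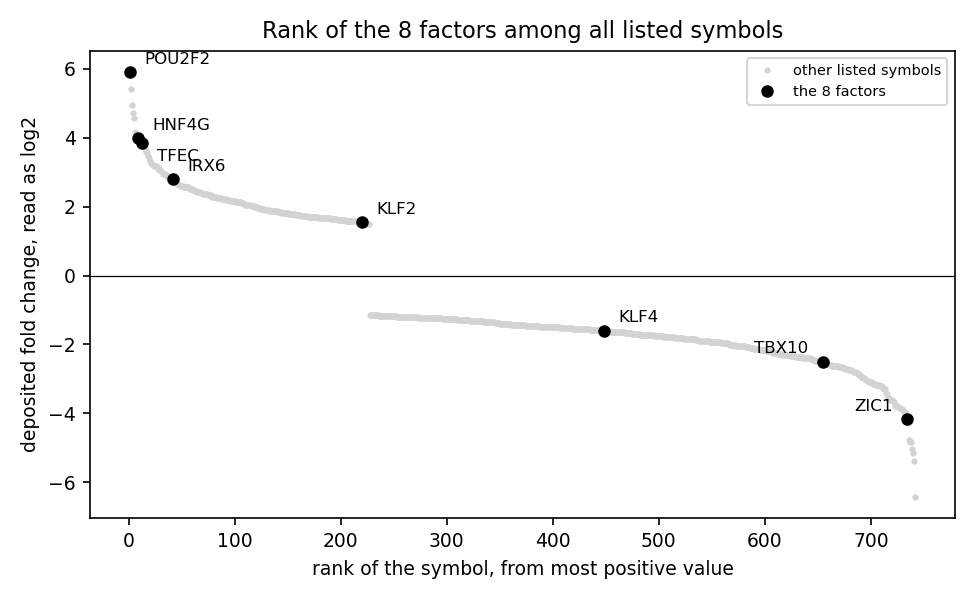
All 742 listed symbols ordered from the most positive to the most negative deposited value (read as log2, vertical axis), with the 8 factors as black points. POU2F2 holds rank 1, HNF4G and TFEC lie close together near the upper end, ZIC1 lies near the lower end, and KLF2 and KLF4 lie on the flat stretches.

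KLF2 and KLF4 are close relatives that share roles in endothelium and in stem cell states, and they were listed in opposite directions. KLF2, which is also known for keeping T cells quiescent, stood at 1.54 in the authors' deposited table (2.91-fold), rank 220 of the 227 higher symbols. KLF4, a reprogramming factor, stood at -1.60 in the authors' deposited table (3.03-fold lower), rank 295 of the 515 lower symbols. They were the smallest changes of the 8, and the only 2 below the median absolute value of all listed symbols. KLF2 lay 0.038 log2 units inside the smallest listed positive value, and KLF4 lay 0.45 inside the negative value nearest to 0. The smallest positive value was 1.50 and the negative value nearest to 0 was -1.15 in the authors' deposited table. The 2 values lie 3.14 log2 units apart, a difference for which no error is known.

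The DNA-binding parts of KLF2 and KLF4 are shown because these relatives, listed in opposite directions, share them, and because reads of similar genes can be hard to tell apart. Each has 3 Cys2His2 zinc finger patterns at the end of its coding sequence, which a script found by the spacing of the cysteines and histidines. The stretch from the first to the last pattern has 243 coding bases in both genes, with no gap. It crosses 2 exons in each, from 16325960 to 16327025 of chromosome 19 (plus strand) for KLF2 and from 107485757 to 107487100 of chromosome 9 (minus strand) for KLF4, on GRCh38. The lines below run 5′ to 3′ in coding sense, and capitals mark the bases that differ between both genes.
KLF2: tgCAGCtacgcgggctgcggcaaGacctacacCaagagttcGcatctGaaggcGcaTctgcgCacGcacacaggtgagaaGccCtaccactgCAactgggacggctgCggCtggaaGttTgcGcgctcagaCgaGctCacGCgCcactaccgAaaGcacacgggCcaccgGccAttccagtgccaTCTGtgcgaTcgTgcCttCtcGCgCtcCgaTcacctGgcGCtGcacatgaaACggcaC
KLF4: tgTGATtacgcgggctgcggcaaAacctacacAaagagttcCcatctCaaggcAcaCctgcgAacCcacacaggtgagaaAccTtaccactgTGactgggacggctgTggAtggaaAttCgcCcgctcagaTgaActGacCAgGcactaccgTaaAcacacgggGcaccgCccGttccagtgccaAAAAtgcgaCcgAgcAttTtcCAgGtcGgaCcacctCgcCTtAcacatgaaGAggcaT

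The lines differ at 52 of 243 bases and are 78.6% identical. Of the differing bases, 43 are at the last codon position, 7 at the first and 2 at the middle one, and 77 of the 81 codons translate to the same amino acid. Before the fingers the coding sequences are 819 and 1191 bases long and 51.7% identical over the longer one. The longest run of identical bases in the stretch is 17. The transcript search found no match of at least 90% identity between KLF2 or KLF4 and any other gene. That search, a megablast, starts from longer exact runs, so it could not have matched KLF2 to KLF4 in this stretch. The same spacing rule matched 3 times in ZIC1. Fingers with another spacing would be missed, so this is not a count of all its fingers. Read lengths are unknown here, and assignment of reads between KLF2 and KLF4 was not tested.

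**Figure D3:**
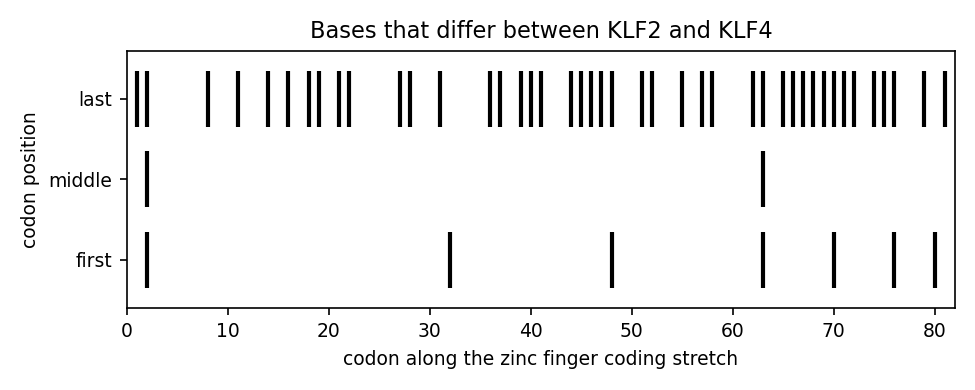
Positions of the 52 bases that differ between KLF2 and KLF4 across the 81 codons of the zinc finger coding stretch (horizontal axis), split by codon position (vertical axis). Each line is 1 differing base; 43 of the 52 lie in the top row, that of the last position.

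Relatives of the 8 factors were listed at about the rate of all genes. Of 114 annotated genes in the 7 families, 11 were listed, 7 higher and 4 lower, and 8 of these 11 are the chosen factors. The other 3 were NR3C2, TBX3 and KLF12, out of 106 genes, or 2.83% against 3.71% of all protein-coding symbols, so their number is not read as a result. KLF12, a repressor of the Kruppel-like family, stood at 2.95 and TBX3, a T-box repressor, at -1.43 in the authors' deposited table. The 3 listed Kruppel-like factors of 18 were therefore 2 higher and 1 lower, and both listed T-box factors of 17 were lower. POU2F2 was alone among 16 POU factors, ZIC1 among 5 ZIC factors, IRX6 among 6 Iroquois factors and TFEC among 4 MiT factors. KLF1, the erythroid member of the Kruppel-like family, and POU2F1, MITF, TFEB and TFE3 were not listed. Absence from a list of selected genes does not show that a gene was unchanged.

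Of the zinc finger families nearest to ZIC and KLF, the Hedgehog effector GLI1 stood at 1.53 and GLIS3 at -1.18 in the authors' deposited table, 2 of 7 GLI and GLIS genes. The osteoblast factor SP7 and the limb factor SP8 stood at -1.80 and -1.20 in the authors' deposited table, 2 of 9 SP genes. These are 28.6% of the GLI and GLIS genes and 22.2% of the SP genes, against 3.71% of all protein-coding symbols. At that share, lists of these sizes would hold 0.26 and 0.33 genes. The lists were chosen with earlier results of these data known, so the counts are not read as a result. GLI1 and KLF2 lay close together near the smallest listed positive value.

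**Figure D4:**
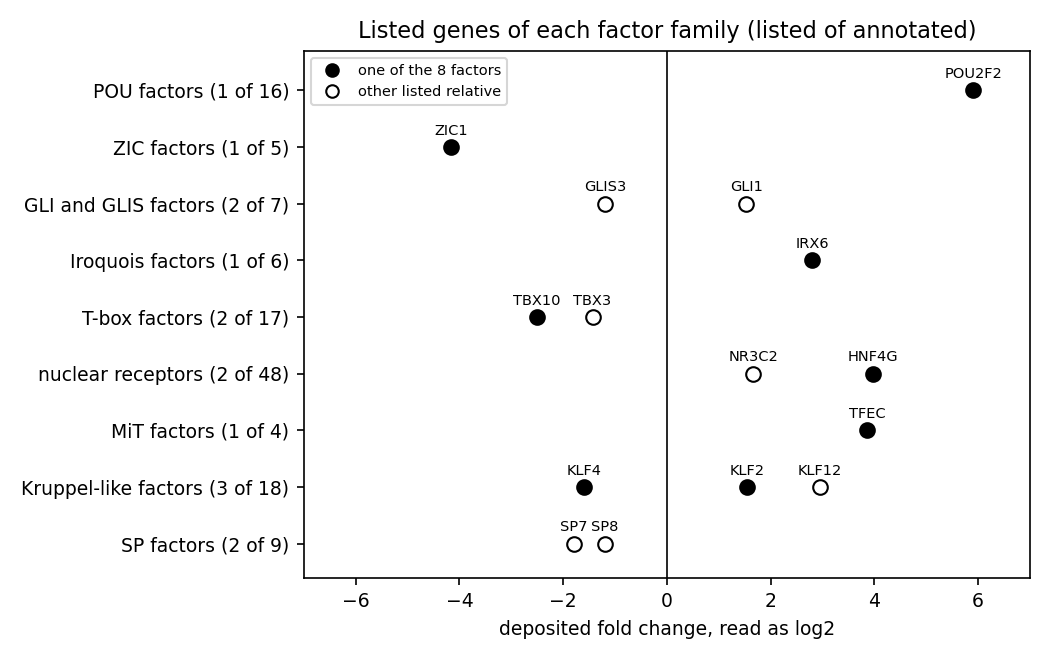
Deposited values, read as log2, of every listed gene in the families of the 8 factors and in the related GLI, GLIS and SP families; labels give listed genes of annotated protein-coding genes. Filled points are the 8 factors and open points other relatives; the Kruppel-like and the GLI and GLIS families have points on both sides of 0.

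Other developmental and lineage factors, taken by symbol pattern from the HOX, PAX, SOX, forkhead, GATA, homeobox, helix-loop-helix, ETS, RUNX, CEBP, IRF, STAT and further families, were also looked up. Of 397 annotated genes 10 appeared, or 2.52% against 3.71% of all protein-coding symbols, 1 higher and 9 lower, beside 69.4% lower among all listed symbols. At an equal minimum in either direction, the smallest positive value, they were 1 higher and 5 lower, beside 59.9% lower among all listed symbols. The higher one was TAL2, a helix-loop-helix factor related to TAL1, at 2.43 in the authors' deposited table. The lower ones were led by TFAP2E, an AP-2 factor, at -2.65, STAT4 at -2.46, IRF5 at -1.91 and ASCL2 at -1.77 in the authors' deposited table. The remaining 5, FOXP3, SOX15, FEV, ALX1 and TP63, lay between -1.65 and -1.25 in the authors' deposited table. Of 45 HOX, CDX and ParaHox genes, 9 PAX genes and 6 GATA genes, 0 were listed. Over all factor families examined, 25 of 527 genes were listed, 9 higher and 16 lower. These are 4.74% against 3.71% of all protein-coding symbols, a share at which 19.5 genes would be listed. The 25 include the 8 factors chosen from the list, so their number is not read as a result. Without the 8 chosen factors, 4 of 17 were higher and 13 lower (76.5% lower, near the 69.4% of all listed symbols). A change of at least 4-fold was listed for 4 of the 17, against 39.6% of all listed symbols. With the smallest positive value as the minimum in either direction, these 17 became 4 higher and 6 lower. At that minimum, 59.9% of all listed symbols were lower.

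Genes known as targets of the HNF4, MiT and Kruppel-like families were also looked up. Of 30 HNF4 targets of liver and gut, PCK1, a gluconeogenic enzyme, stood at 1.66 and the sterol transporter ABCG5 at -1.92 in the authors' deposited table. Among 32 lysosome and autophagy genes of the network that MiT factors control, 0 were listed. Of 15 pigment, osteoclast and macrophage genes linked to MiT factors, CD14 alone was listed, at -1.73 in the authors' deposited table.

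Of 20 endothelial and T cell genes linked to KLF2 and KLF4, the TGF-beta coreceptor ENG alone was listed, at -2.64 in the authors' deposited table; NOS3, THBD and S1PR1 had no entry. Of 12 pluripotency factors, LIN28A at -1.50 and TBX3 at -1.43 appeared in the authors' deposited table. For the lineages of K562 itself, 0 of 25 erythroid genes and 2 of 14 megakaryocyte genes were listed, PPBP at 3.89 and GP1BA at -1.96 in the authors' deposited table. The listed shares were 16.7% of the pluripotency factors and 14.3% of the megakaryocyte genes. They were 6.67% of the HNF4 targets and of the 15 genes linked to MiT factors, and 5% of those linked to KLF2 and KLF4. At 3.71%, lists of these sizes would hold 0.44 to 1.19 genes each. The lists were chosen with earlier results of these data known and no test was made, so neither presence nor absence is read as a result. The identity of the cells could not be checked from markers, since the table holds selected genes only.

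**Figure D5:**
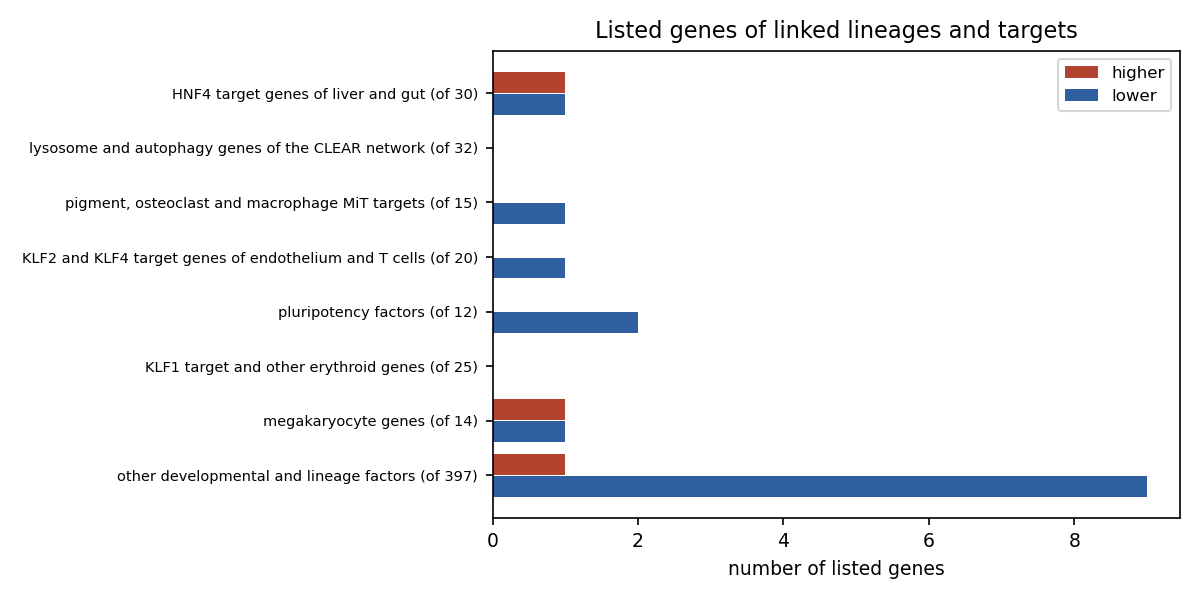
Number of listed genes, higher and lower in the knockdown, in 8 gene lists linked to the 8 factors or to K562; labels give the annotated protein-coding genes of each list. Most lists hold 0 to 2 listed genes, and 9 of the 10 other developmental and lineage factors are lower.

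The 8 factors lie on 7 chromosomes, and they have 178 other protein-coding genes within 1 Mb in all. Of these, 4 were listed, 2.25% against 3.71% of all protein-coding symbols, so the number is not read as a result. Within 1 Mb of POU2F2 there are 57 other protein-coding genes, of which B3GNT8 (657 kb away) stood at -1.44 and CYP2F1 (958 kb away) at -4.84 in the authors' deposited table, both opposite to POU2F2. Near TFEC, with 7 such genes, the caveolar protein CAV1 (365 kb away) stood at 2.15 in the authors' deposited table, in the same direction as TFEC. Near TBX10, with 46 such genes, the phosphatase SSH3 (319 kb away) stood at 1.60 in the authors' deposited table, opposite to TBX10. No listed gene lay within 1 Mb of ZIC1, IRX6, HNF4G, KLF2 or KLF4.

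RefSeq promoters (GRCh38.p14) were at hand for 6 of the 8 factors, and the 250 bases before each start were searched on both strands. The GC box GGGGCGGGG, a motif of SP and Kruppel-like factors, occurred once before KLF2, starting at base -245, and before KLF4 at bases -166 and -77; it occurred in 15.1% of all 35116 promoters. The E-box CACGTG, which MiT factors can bind, occurred before KLF4 at base -157, next to a GC box without overlap, and before ZIC1 at base -57, against 6.35% of all promoters. The octamer ATGCAAAT, the motif of POU2F2, occurred in none of these windows and in 1.63% of all promoters. The other motifs tried, with 0 matches in these windows, were CCACACCC, ACANNTGT, AGGTGTGA, TCACGTGA (which contains the E-box), AGGTCA, GACCACCCA and TATAAA, found in 2.97%, 4.71%, 0.786%, 0.854%, 12.1%, 0.199% and 10.7% of all promoters. In base composition the windows ranged from 80% G and C before KLF2 to 35.2% before one of the 2 TFEC starts, with a median of 58% over all promoters. These matches describe letters only.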

How the data were processed

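RNA of 4 K562 libraries, 2 per group, underlies a single table. Cuffdiff, Cufflinks, TopHat, Bowtie2, SAMtools 1.3.1 and Trim Galore 0.4.4 were used on build GRCh38 (hg38), per the submitters' processing notes; order, settings and the threshold for entry are not given in these sources. The authors deposited 831 rows of a symbol and a fold change, read here as log2 because both signs occur and values have at most 6 significant digits, as Cuffdiff prints them; a signed linear fold change is possible. Depth per library is unknown, so no interval or floor is given.

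Each symbol was counted once (742), repeated rows being identical. The members and gene lists were chosen with earlier results of these data known. Named are the 8 factors, listed genes of the fixed lists, listed genes within 1 Mb of a factor, symbols nearest in value and the values at the entry minimum; 2 lists are not reported here. GENCODE release 29 gave positions, with 740 symbols matched. Longest transcripts were compared with all transcripts of other loci by the megablast search of BLAST 2.17.0 (at least 90% identity). The longest complete coding sequence was used for KLF2, KLF4 and ZIC1. No test was made. Alternatives were every row, 4-fold, an equal minimum, older symbols, leaving out exon overlaps and a linear reading. Python 3.11.15, pandas 2.3.3, numpy 2.4.6, Biopython 1.88 and matplotlib 3.10.9 were used.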

Additional observations from a re-analysis of the deposited data

How the results depend on the processing

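The split of 5 higher and 3 lower factors was the same with every deposited row counted, with older symbols translated and with 1.50 as the minimum for either direction. At that equal minimum, 59.9% of all listed symbols were lower. At 4-fold it was 4 to 2, which leaves out KLF2 and KLF4, and without ZIC1, the one factor with exon overlap, 5 to 2. Read as signed linear fold changes, the median absolute value of the 8 factors was 1.72 on the log2 scale instead of 3.33; POU2F2 would then be 5.91-fold higher instead of 60.2-fold, and KLF2 and KLF4 1.54-fold higher and 1.60-fold lower. Over all 25 listed factors, the number lower went from 16 to 9 at the equal minimum and to 4 at 4-fold, and the number higher from 9 to 9 and 6. In alternatives chosen after seeing the data, the lower ones other than the 8 went from 13 to 6 and the lower ones of the other developmental families from 9 to 5 at the equal minimum, and the factors at 4-fold from 6 to 2 under the linear reading. The equal minimum removes lower genes only, by construction. Without values per library, leaving out replicates, other pseudocounts and filters were not run. No paired analysis was possible because the table holds 1 value per gene and no columns per library. If the direction of the table were the reverse of that assumed, every higher and lower above would swap.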
